A study of Rattus norvegicus with 18 samples.

Results

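Messenger RNA for the nuclear-encoded subunits of the mitochondrial oxidative phosphorylation chain was followed in rat bone defects filled with 3 kinds of printed scaffold. The genes were taken by name: every row of the count table whose symbol begins with Nduf followed by a subunit letter and digit, is Sdha to Sdhd, or begins with Uqcr, Cox4 to Cox8 or Atp5, and which had at least 10 counts in at least 3 of the 18 libraries. Of 17337 rows, 80 symbols fitted the name pattern and 75 also had the counts. These were 33 of complex I, 4 of complex II, 8 of complex III, 14 of complex IV and 16 of complex V. The 5 that stayed out were far from the limit: Cox6c-ps1, Cox8c and Ndufa1 had no count in any library, Atp5f1 had at most 1 and Ndufs6 at most 4. The genes nearest the limit on the other side were Cox8b, whose third-highest count was 16, Cox6a2 with 46, Cox6b2 with 67, Cox4i2 with 79 and Ndufa10l1 with 91.

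The chain sits in the inner mitochondrial membrane. Complex I takes electrons from NADH and complex II, which is also an enzyme of the citric acid cycle, takes them from succinate; ubiquinone carries them to complex III and cytochrome c carries them on to complex IV, which passes them to oxygen. Complexes I, III and IV pump protons, and complex V lets them flow back through its ring of c subunits to make ATP. Most subunits are encoded in the nucleus and found in nearly every cell, whereas a few have forms made mainly in heart and skeletal muscle or at low oxygen. In bone, osteoclasts are known for their many mitochondria, while osteoblasts and dividing marrow cells also draw on glycolysis. Of the 75 genes, 66 are widely expressed structural subunits. The other 9 are forms of limited tissue range or related proteins that share the naming stem: Cox4i2, Cox6a2, Cox6b2, Cox8b, Ndufa4l2, Ndufa10l1, Cox7a2l, Atp5s and Atp5sl. None of the 13 subunits encoded by mitochondrial DNA was among the genes tested, so they are not analysed here.

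All animals were wild-type (WT) rats with a critical-sized gap cut in the radius, a gap too large to close unaided. The gap held a scaffold of polycaprolactone alone (PCL), of polycaprolactone with calcium phosphate microparticles (CaP), or of polycaprolactone carrying chitosan nanoparticles that hold amorphous calcium phosphate (ACPC-NP). Tissue was taken after 2 or 6 weeks with a margin of bone on either side, and polyadenylated RNA came from the cells released from marrow and bone by enzymes after lysis of red cells. Each of the 6 groups had 3 libraries of 18880604 to 27186587 counts; whether each library of a group is from its own animal is not stated in the labels, so p-values measure only the spread between these samples. One library stood apart from the rest in its scaling and its counts. ACPC-NP week 2 replicate 3 had a scaling factor of 0.706, the lowest of the 18. Its counts set against replicates 1 and 2 of its group gave a chi-square per degree of freedom of 627 and 470. The other pairs within groups had 31.9 to 155. Results that include this library are given with and without it where it moves them. Another, PCL week 6 replicate 1, moved the number of genes called at week 6, as given below. Marker genes of erythroid cells, neutrophils, macrophages, osteoclasts, osteoblasts and skeletal muscle were all detected, so each value below is an average over a mixture, in which fewer cells of a type and less RNA per cell cannot be told apart.

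The promoters of 6 genes on which the results below turn are shown first, because factors that bind short DNA words near the start site are known to act on many of these genes at once. Each sequence is the 250 bases before the gene's start in RefSeq's GRCr8 assembly, given 5′ to 3′ on the gene's own strand. Ndufa11 and Atp5o, from complexes I and V, were among the subunits with the smallest p at week 6, and Sdhb had the smallest of them at week 2; Cox8a is the widely expressed partner of the muscle form Cox8b, and Cox6a2 is the other muscle form. Capitals mark the letters of any of 7 words searched on both strands: GCGCA then any base then GCGC (bound by NRF1), CCGGAAG (ETS family factors, such as GABPA), AAGATGGCG (YY1), TCAAGGTCA (estrogen-related receptors), ACGTG (the core of the hypoxia response element), CTA then any 4 bases then TAG (MEF2) and CAGCTG (an E-box of muscle regulators). The first, sixth and seventh words can read the same on both strands, and each such place was counted once.
Ndufa11, chr9:1637364-1637613, plus strand: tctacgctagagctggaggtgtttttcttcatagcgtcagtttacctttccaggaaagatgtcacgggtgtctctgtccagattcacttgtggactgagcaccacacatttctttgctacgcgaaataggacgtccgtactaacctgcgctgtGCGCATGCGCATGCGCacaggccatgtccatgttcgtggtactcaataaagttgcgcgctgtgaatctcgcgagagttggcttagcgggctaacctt
Atp5o, chr11:44657484-44657733, minus strand: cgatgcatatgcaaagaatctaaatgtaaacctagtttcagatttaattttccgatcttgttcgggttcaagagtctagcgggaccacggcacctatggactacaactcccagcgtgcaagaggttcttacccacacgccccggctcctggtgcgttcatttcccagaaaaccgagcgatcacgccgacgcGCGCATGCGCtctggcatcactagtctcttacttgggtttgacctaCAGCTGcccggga
Sdhb, chr5:158547684-158547933, plus strand: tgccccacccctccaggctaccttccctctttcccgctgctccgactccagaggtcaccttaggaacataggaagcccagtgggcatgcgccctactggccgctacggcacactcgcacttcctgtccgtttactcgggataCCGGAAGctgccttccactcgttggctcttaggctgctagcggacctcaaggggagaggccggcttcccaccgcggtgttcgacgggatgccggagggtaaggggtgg
Cox8a, chr1:213833624-213833873, minus strand: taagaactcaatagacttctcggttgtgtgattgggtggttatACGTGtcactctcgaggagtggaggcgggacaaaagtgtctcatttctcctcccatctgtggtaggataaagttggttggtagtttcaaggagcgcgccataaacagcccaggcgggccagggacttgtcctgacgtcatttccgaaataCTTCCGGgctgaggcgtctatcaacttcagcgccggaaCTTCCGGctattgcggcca
Cox8b, chr1:205408274-205408523, minus strand: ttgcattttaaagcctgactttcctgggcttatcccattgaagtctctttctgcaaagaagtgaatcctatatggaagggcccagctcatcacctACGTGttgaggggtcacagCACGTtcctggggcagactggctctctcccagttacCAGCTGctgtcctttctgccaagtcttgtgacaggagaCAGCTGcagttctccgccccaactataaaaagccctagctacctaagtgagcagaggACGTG
Cox6a2, chr1:192219717-192219966, minus strand: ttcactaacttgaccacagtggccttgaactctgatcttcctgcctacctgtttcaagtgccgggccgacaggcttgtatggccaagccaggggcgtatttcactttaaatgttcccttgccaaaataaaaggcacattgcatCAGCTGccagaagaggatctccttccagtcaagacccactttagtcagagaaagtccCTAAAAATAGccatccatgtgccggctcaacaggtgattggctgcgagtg
The capitals show 2 overlapping NRF1 words in Ndufa11, an NRF1 word and a CAGCTG in Atp5o, an ETS word in Sdhb, and 2 ETS words (as CTTCCGG) with an ACGTG in Cox8a. The promoter of Cox8b held 3 ACGTG words, one of them on the other strand as CACGT, and 2 of CAGCTG, and that of Cox6a2 held a MEF2 word and a CAGCTG. Other genes with a small p lacked most of these words. The promoters of Cox7b and Ndufs4 (week 6) and of Sdhc (week 2) held none of the 7 words. That of Atp5s (week 6) held an ACGTG only. A match describes these letters only and is not evidence that a factor binds there.

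RefSeq entries were found for all 75 genes, 59 by symbol and 16 by an older symbol, and 64 had a promoter in the table. The NRF1 word was in 10 of the 58 promoters of widely expressed subunits (17.2%) and in 5.4% of all 19005 promoters of protein-coding genes of that length. The ETS word was in 17 of the 58 (29.3%) against 9.5% of all. ACGTG, in 13 (22.4%) against 17.6%, and CAGCTG, in 6 (10.3%) against 11.9%, were closer to their general share. The MEF2 word was in 1 (1.7%) against 3.2%, AAGATGGCG in 1 (1.7%) against 0.8%, and TCAAGGTCA in 1 (1.7%) against 0.3%. With 1 promoter each these are too few to compare. Of the 6 promoters of the limited or related genes, 0 held the NRF1 word, 0 the ETS word, 3 ACGTG, 1 the MEF2 word and 2 CAGCTG. These shares describe sequence alone, and no binding was measured in these samples.

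Levels are given as CPM, each library's counts over its total, scaled with edgeR's TMM factors. The 75 genes together took 0.555% to 0.879% of a library's counts, with a median of 0.753%, and their summed level was 6645 to 8458 CPM. The lowest share was that of ACPC-NP week 2 replicate 3, whose summed level after scaling was 7861 CPM, above the median of 7475. By complex, the sums over the 18 libraries ran from 1512 to 1968 CPM for complex I, 361 to 501 for complex II, 749 to 898 for complex III, 1272 to 1697 for complex IV and 2751 to 3531 for complex V. Gene lengths were not in the table, so levels are compared between libraries and never between genes or complexes. At week 6 the complex I sum averaged 1823 ± 85.0 CPM with ACPC-NP, 1615 ± 43.9 with CaP and 1580 ± 97.3 with PCL (SD, n = 3 each). The complex V sum followed the same order, at 3357 ± 201, 2999 ± 97.9 and 2910 ± 155 CPM. For complex II the ACPC-NP average was the highest at both times, at 462 ± 42.8 CPM at week 2 (469, 416 and 501 in replicates 1, 2 and 3) and 419 ± 17.1 at week 6, against 407 ± 24.2 and 397 ± 17.4 with CaP and 405 ± 36.5 and 369 ± 7.14 with PCL. At week 2 the complex I sums were 1823 ± 149, 1770 ± 199 and 1728 ± 164 CPM for ACPC-NP, CaP and PCL, which differed by less than the spread within each group.

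**Figure D1:**
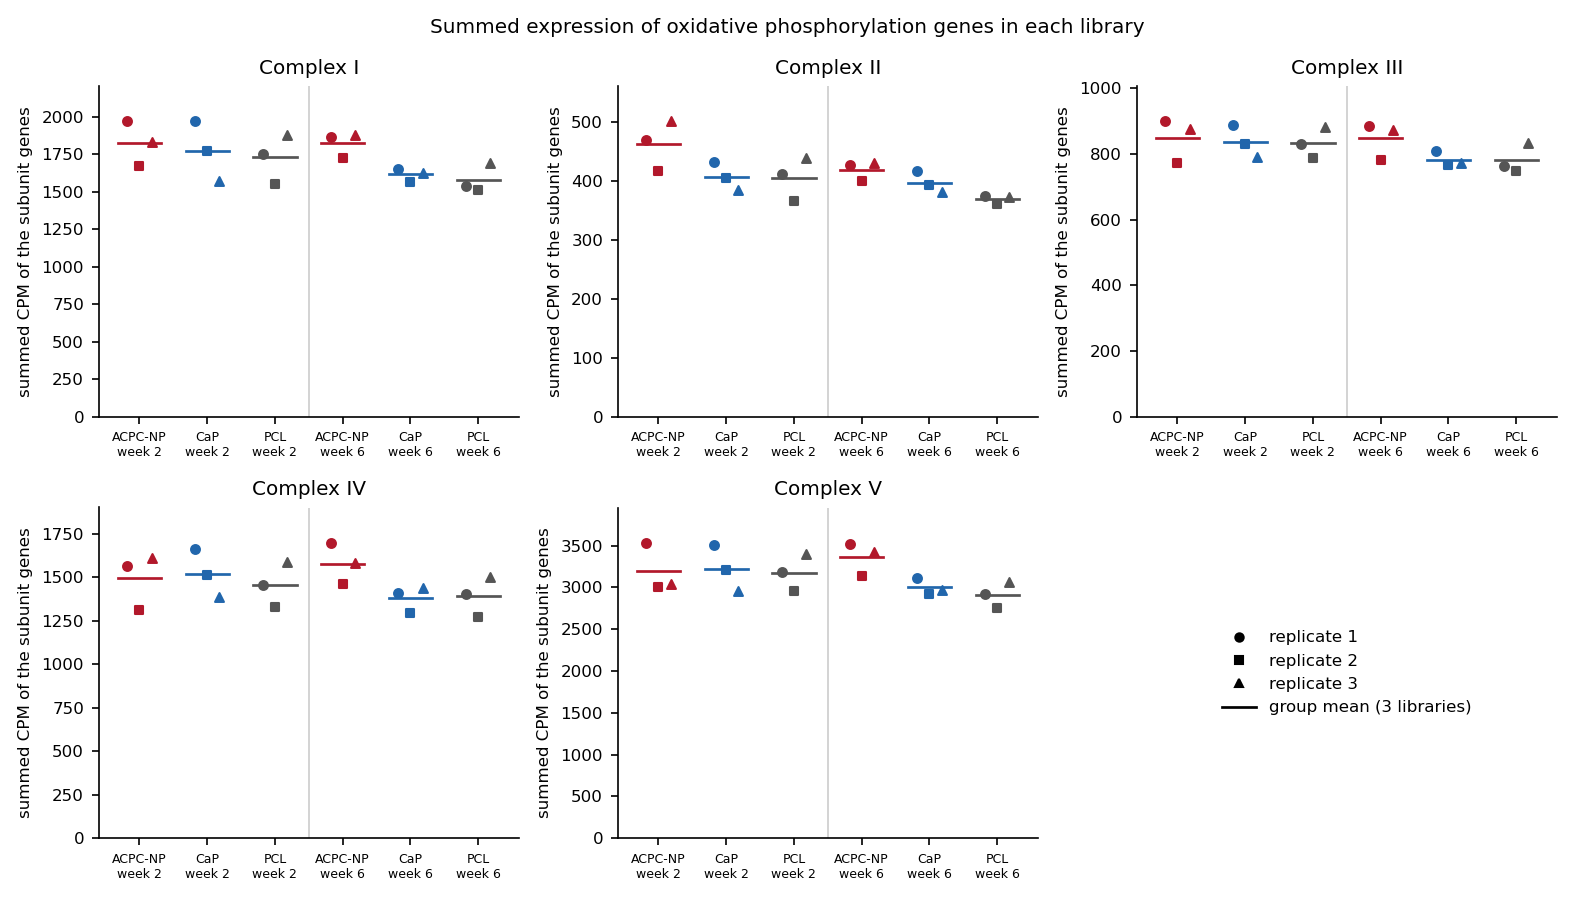
Summed CPM of the subunits of each complex in every library, by scaffold and week; circles, squares and triangles are replicates 1, 2 and 3 and the bar is the group mean. At week 6 the mean of ACPC-NP is above those of CaP and PCL for each complex, for example 1823 against 1615 and 1580 CPM for complex I, and the week 2 groups spread widely.

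The widely expressed subunits varied little between libraries. The median coefficient of variation over the 18 libraries was 10.6% for the 66 (5.63% to 17.5%), against 20.1% for all 11814 genes tested and 15.1% for the 7810 genes within the same range of mean CPM. Uqcrc1, a core subunit of complex III, was the steadiest at 5.63%, with 162 to 192 CPM in every library. Close to it were the catalytic subunits Sdha (6.49%) and Ndufv1 (6.78%) and the core subunits Uqcrc2 (6.81%) and Ndufs7 (7.03%). The alpha subunit of complex V, Atp5a1 (7.20%), was close as well. Wide ranges belonged to the forms of limited tissue range: Ndufa10l1 at 184% (0.0408 to 7.18 CPM), Cox6a2 at 141% (0.118 to 6.77), Cox8b at 118% (0 to 2.34), Cox4i2 at 84.1% (0.261 to 7.57) and Ndufa4l2 at 57.6% (1.32 to 8.13). These genes also had few counts, which adds counting error to their spread.

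Many of the 66 moved together from library to library. In CaP week 2 replicate 1, 65 of the 66 were above their own 18-library mean and 22 had their highest value; in PCL week 6 replicate 2, 1 of the 66 was above its mean and 22 had their lowest value. The 3 libraries of a week 2 group were far apart, with 65, 45 and 3 of the 66 above their mean for CaP, 42, 2 and 63 for PCL, and 66, 14 and 46 for ACPC-NP. At week 6 the counts were 62, 31 and 62 for ACPC-NP, 18, 4 and 10 for CaP, and 1, 1 and 25 for PCL. So the ACPC-NP week 6 libraries did not overlap with the other week 6 libraries in this count. Replicate 2 was the nearest to them. Its average centred log2 level of the 66 was -0.0035, just above -0.0174 in PCL replicate 3. With the limited and related genes included, this average was -0.0689. That was below CaP replicates 1 and 3 (0.0336 and -0.0281) and PCL replicate 3 (-0.0097), and above the rest. ACPC-NP replicates 1 and 3 (0.0644 and 0.277) were above all of these. The summed CPM of replicate 2 overlapped the others for complexes II, III and IV, but not I and V.

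**Figure D2:**
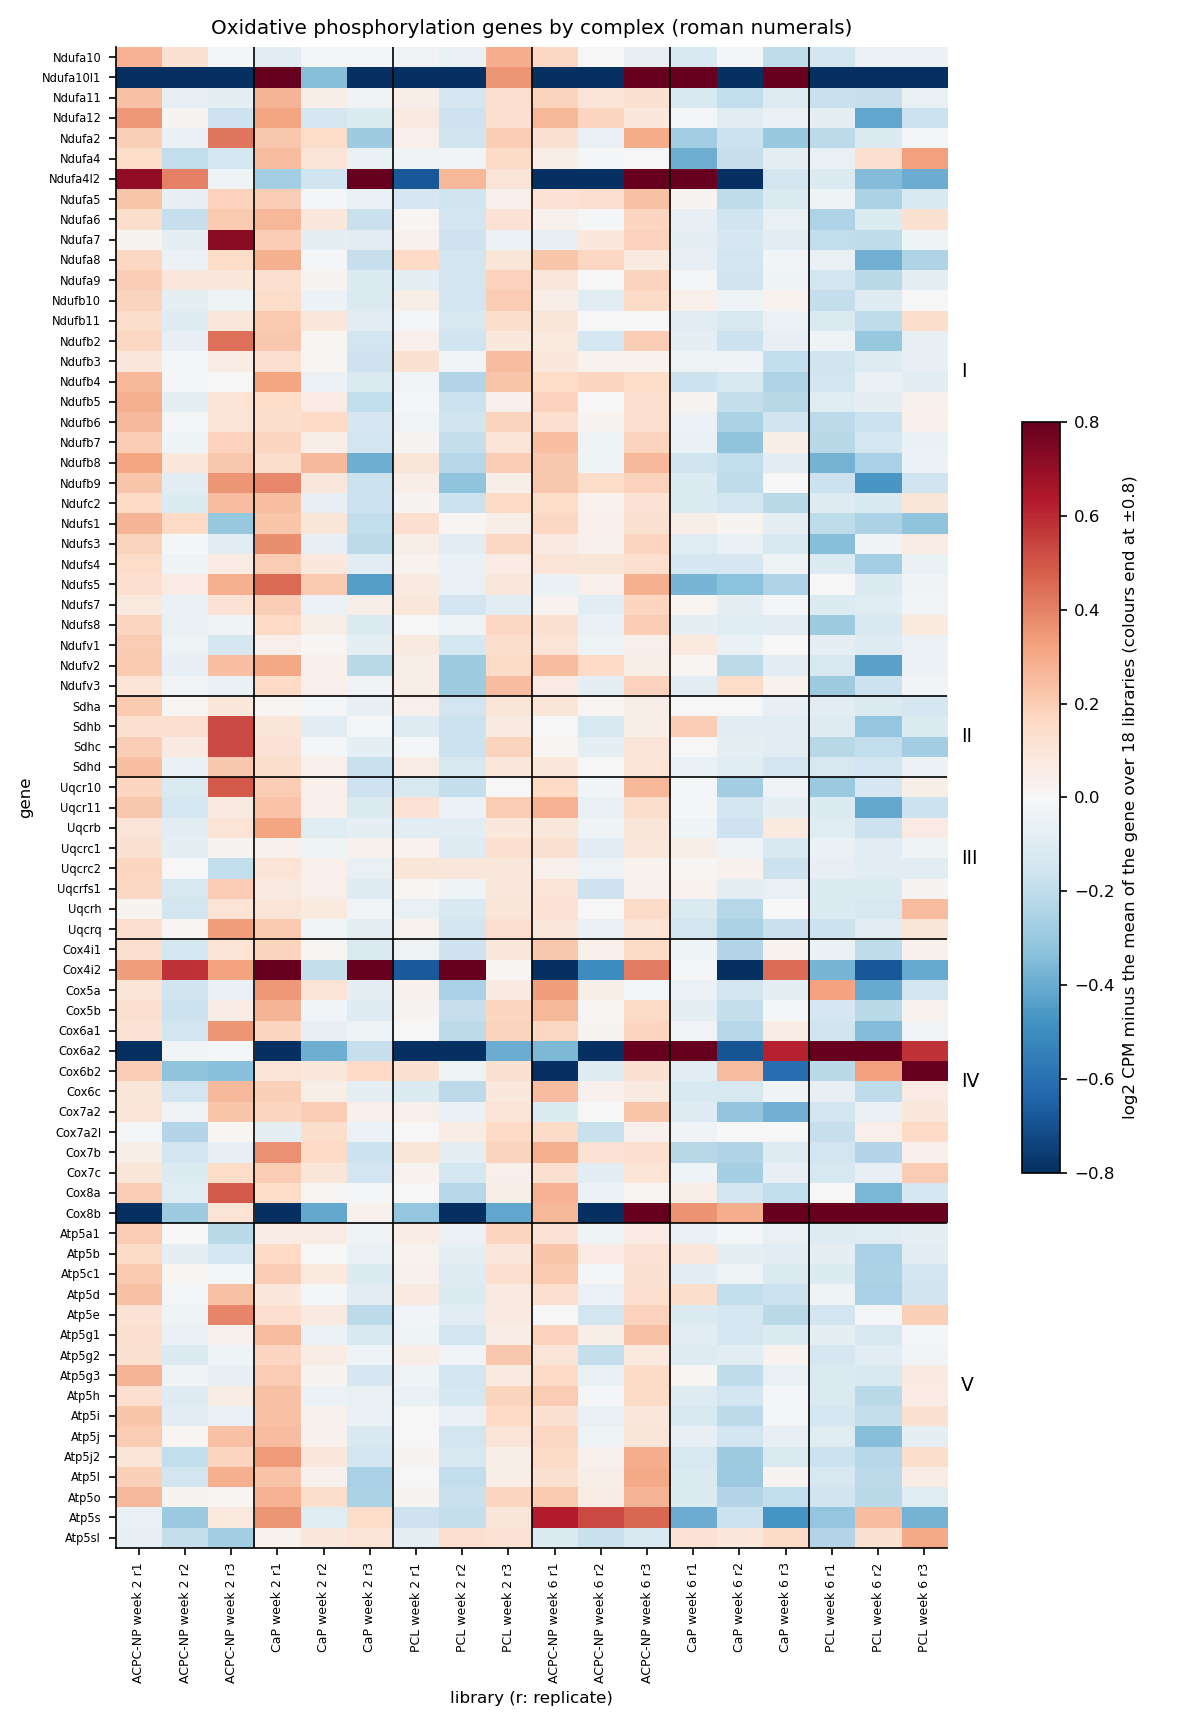
Log2 CPM of the subunit genes named at the left (rows, grouped by complex) in the 18 libraries (columns, grouped by scaffold and week), each gene centred on its own mean; colours end at -0.8 and 0.8. Whole columns shade together, as in CaP week 2 replicate 1, where 65 of the 66 widely expressed subunits are above their mean, and PCL week 6 replicate 2, where 1 is.

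At week 6 nearly every subunit was higher with ACPC-NP than with the other scaffolds by a small amount. With all libraries in the fit no single gene passed the test. Against the average of the other scaffolds, 73 of the 75 genes had a log2 difference above 0, where 50.3% of all genes did, and the median was 0.20 against 0.00 over all genes. All 66 widely expressed subunits were above 0. With edgeR's quasi-likelihood test and Benjamini-Hochberg adjustment over the 11814 genes, 0 of the 75 passed an adjusted p of 0.05, as 0% of all genes did, and the smallest adjusted p was 0.105. At an unadjusted p of 0.05, 25 of the 75 were higher (33.3%) and 1 was lower, where 9.62% of all genes were higher and 10.9% lower. In 20 genes all 3 ACPC-NP libraries were above all 6 others, as in 7.17% of all genes, and in 0 genes all were below, as in 7.53%. Without ACPC-NP replicate 1, 2 or 3 the median was 0.17, 0.24 or 0.15, and 70, 73 or 65 genes stayed above 0. The number at an unadjusted p of 0.05 was then 9, 25 or 12, against 6.18%, 6.04% or 8.85% of all genes. The count thus moved by over 1.5 times without replicate 1 or replicate 3, and the direction did not. Since many subunits moved together from library to library, gene counts here and in the comparisons below are not independent observations. The library average of the 75 genes had a pooled SD within groups of 0.12 log2, beside the median difference of 0.20.

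Within complex I, which oxidises NADH, all 33 genes were above 0 with a median of 0.20, and 14 had an unadjusted p under 0.05. Ndufa11, an accessory subunit of the membrane arm whose promoter is printed above, had 81.8, 77.6 and 78.7 CPM in the ACPC-NP week 6 libraries, 66.3, 63.1 and 67.3 with CaP and 63.8, 63.6 and 69.4 with PCL. Every ACPC-NP library was above every other. The log2 difference from the average of the other scaffolds was 0.28 ± 0.09 (SE; edgeR adjusted p = 0.127). Ndufs4, an accessory subunit near the NADH-binding end of the complex, had 56.2, 55.9 and 57.5 CPM with ACPC-NP, 47.8, 47.8 and 50.9 with CaP and 48.7, 43.3 and 50.5 with PCL. Its groups were again separate, at 0.23 ± 0.08 (adjusted p = 0.132). Among the 24 accessory subunits 12 had an unadjusted p under 0.05 with a median of 0.21, and among the 7 core subunits 2 did, with a median of 0.19.

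The core subunits of complex I were uneven. Ndufs1, which holds iron-sulfur clusters at the electron entry, had 89.1, 81.7 and 86.4 CPM with ACPC-NP at week 6, 82.5, 80.5 and 75.3 with CaP and 69.1, 66.7 and 63.5 with PCL. The lowest ACPC-NP library thus lay among the CaP libraries, and all 3 PCL libraries were below both. Its log2 difference was 0.24 ± 0.11 (adjusted p = 0.241). Ndufv1, which binds NADH, was at 0.07 ± 0.09, within its error of 0. The accessory subunits Ndufa9 (0.20 ± 0.09) and Ndufb8 (0.34 ± 0.13) had ranges that were separate but nearly touched, with edgeR adjusted p of 0.213 and 0.178. The lowest ACPC-NP library had 71.99 CPM of Ndufa9 against 71.72 in CaP replicate 1. For Ndufb8 it had 96.3 CPM against 95.7 in PCL replicate 3.

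In complex II all 4 genes were above 0 at week 6 with a median of 0.14, 0 had an unadjusted p under 0.05, and Sdha and Sdhd had separate ranges. Sdha, the flavoprotein that oxidises succinate, had 159, 151 and 155 CPM with ACPC-NP, 150, 149 and 143 with CaP and 140, 138 and 136 with PCL. The ranges did not overlap, although the lowest ACPC-NP library and the highest CaP library nearly touched; the log2 difference was 0.12 ± 0.07 (adjusted p = 0.36). Sdhb, the iron-sulfur subunit, was at 0.06 ± 0.11 and overlapped. In complex III all 8 were above 0 with the lowest median of the 5 complexes, 0.12. The core and Rieske subunits Uqcrc1, Uqcrc2 and Uqcrfs1 were at 0.09 ± 0.08, 0.07 ± 0.08 and 0.05 ± 0.09, and the 5 small subunits had a median of 0.17.

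Complex IV, which passes electrons to oxygen, had a median of 0.21 with 13 of 14 genes above 0. Cox7b, a small subunit, had 130, 116 and 117 CPM in the ACPC-NP week 6 libraries, 91.5, 90.2 and 99.3 with CaP and 95.7, 90.6 and 109 with PCL. All 3 ACPC-NP libraries were the highest of week 6, and replicate 3 of PCL came closest to them. The log2 difference was 0.33 ± 0.11 (adjusted p = 0.127). Cox4i1, the widely expressed form of a subunit that binds ATP, had separate ranges at 0.21 ± 0.10. They nearly touched, at 366 CPM in the lowest ACPC-NP library and 364 in PCL replicate 3. Cox5a (0.20 ± 0.14), Cox5b (0.25 ± 0.11) and Cox6c (0.20 ± 0.10) overlapped, Cox5a because PCL replicate 1 had 180 CPM against 181, 150 and 143 in the ACPC-NP libraries.

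Complex V, the ATP synthase, had a median of 0.21 with 15 of 16 genes above 0 and 8 at an unadjusted p under 0.05. Atp5o, the OSCP subunit that joins the head to its stalk, had 128, 115 and 133 CPM with ACPC-NP at week 6, 102, 93.8 and 96.5 with CaP and 99.0, 95.0 and 103 with PCL. The groups did not overlap, and the log2 difference was 0.35 ± 0.11 (adjusted p = 0.122). The catalytic beta subunit Atp5b averaged 1200 ± 67.9 CPM (SD, n = 3) against 1034 ± 76.9 (n = 6) and overlapped with CaP replicate 1, at 0.22 ± 0.10 (edgeR adjusted p = 0.222). The alpha subunit Atp5a1 was at 0.12 ± 0.09, and the central stalk subunit Atp5c1 at 0.24 ± 0.09 with separate ranges. Of the 3 genes for the c subunit, whose mature protein is the same, Atp5g1 was separate at 0.25 ± 0.09, while Atp5g2 (0.07 ± 0.09) and Atp5g3 (0.16 ± 0.10) overlapped.

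The smallest p of the 75, and the sole gene lower at an unadjusted p of 0.05, both belonged to genes named for complex V that are not structural subunits. Atp5s, also known as coupling factor B, had 5.38, 5.01 and 4.79 CPM with ACPC-NP at week 6, 2.61, 3.05 and 2.47 with CaP and 2.78, 4.12 and 2.63 with PCL. Every ACPC-NP library was above every other of that week, at a log2 difference of 0.79 ± 0.18 (adjusted p = 0.105). Atp5sl, now known as Dmac2 and needed to assemble complex I, had 34.9, 33.2 and 34.6 CPM with ACPC-NP, 40.8, 39.9 and 41.9 with CaP and 32.01, 40.9 and 46.4 with PCL, so PCL replicate 1 lay below the ACPC-NP libraries. Its difference was -0.24 ± 0.10 (adjusted p = 0.201). Without PCL replicate 1 edgeR called Atp5s higher (0.73, adjusted p = 0.0245) and Atp5sl lower (-0.32, adjusted p = 0.0213). It then called 1335 genes in all in place of 0. The Atp5s difference itself was smaller than with all libraries, 0.73 against 0.79.

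Set against each scaffold alone, the week 6 picture was alike, although both comparisons use the same ACPC-NP libraries. Against PCL, 71 of 75 genes were above 0 (49.2% of all genes) with a median of 0.20. At an unadjusted p of 0.05, 20 were higher (26.7%, against 9.23% of all genes) and 0 lower (12.7%), and 29 had separate higher (12.8%) and 0 separate lower ranges (14.2%). The smallest p values were for Atp5s at 0.67 ± 0.21 (adjusted p = 0.1), Ndufa8 at 0.38 ± 0.12 (0.113) and Ndufb9 at 0.44 ± 0.15 (0.121). Against CaP, 68 of 75 were above 0 (50.3%) with a median of 0.18. Here 13 were higher (17.3%, against 4.38%), 1 was lower (4.96%) and 37 had separate higher (12.3%) and 1 separate lower ranges (12.5%), and the smallest adjusted p was 0.506. Atp5s (0.90 ± 0.21), Cox7b (0.37 ± 0.13) and Atp5o (0.36 ± 0.13) led, and Atp5sl was the lower one at -0.26 ± 0.11. In all 3 comparisons edgeR called 0 of the 75 genes and 0% of all genes.

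Other tools on the same counts called some of these genes, and many other genes with them. Against the average of the other scaffolds, DESeq2 called 5 of the 70 members to which it gave an adjusted p (7.14%), all higher, where it called 2.91% of all genes higher. They were Atp5s (adjusted p = 0.00437), Atp5o (0.0363), Ndufa11 (0.0382), Ndufs4 (0.0410) and Cox7b (0.0492). The limma voom method with sample weights called 18 of the 75 higher (24.0%), the 5 of DESeq2 among them, where it called 15.0% of all genes higher. It called 1 lower, Atp5sl (1.33%), where it called 14.3% of all genes lower. In both directions together voom called 25.3% of the members and 29.3% of all genes. Against PCL alone DESeq2 called 6 higher (8.11% of members, 3.42% of all genes), and voom called 17 higher (22.7% against 16.7%) and 2 lower (2.67% against 17.5%). The 5 in common were Atp5c1, Ndufs4, Ndufa8, Atp5s and Atp5b. Against CaP alone both called Atp5s only, where DESeq2 called 0.0909% and voom 0.127% of all genes higher. Scaling moved the members and all genes together. With library totals in place of TMM factors the median of the 75 was 0.10 and that of all genes -0.09. Of the 75, 59 were then above 0.

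Other measures differed along with the subunits at week 6. The summed level of 11 erythroid markers was 55154 to 74063 CPM with ACPC-NP, 28754 to 40462 with CaP and 25716 to 41057 with PCL, with no overlap, and Gata1 of that list was at 0 in every library. Of the 10 erythroid markers tested, 9 were above 0 with a median of 0.54 and 7 had an unadjusted p under 0.05 (0 called); this number was 4 without ACPC-NP replicate 1 or replicate 2. All 9 neutrophil markers tested were above 0 with a median of 0.46, and their sums overlapped, at 27439 to 38975 CPM with ACPC-NP, 21222 to 28386 with CaP and 15051 to 37450 with PCL. All 6 B cell markers tested were below 0, with a median of -0.60. Without ACPC-NP replicate 1, 2 or 3 the median of 9 osteoblast markers was -0.67, -1.05 or -0.98. That of 7 chondrocyte markers was -0.35, -1.31 or -1.17. For 12 skeletal muscle markers it was 1.33, 1.37 or -0.81, so their sign rested on replicate 3. The part of any of these cells in the subunit differences was not tested.

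**Figure D3:**
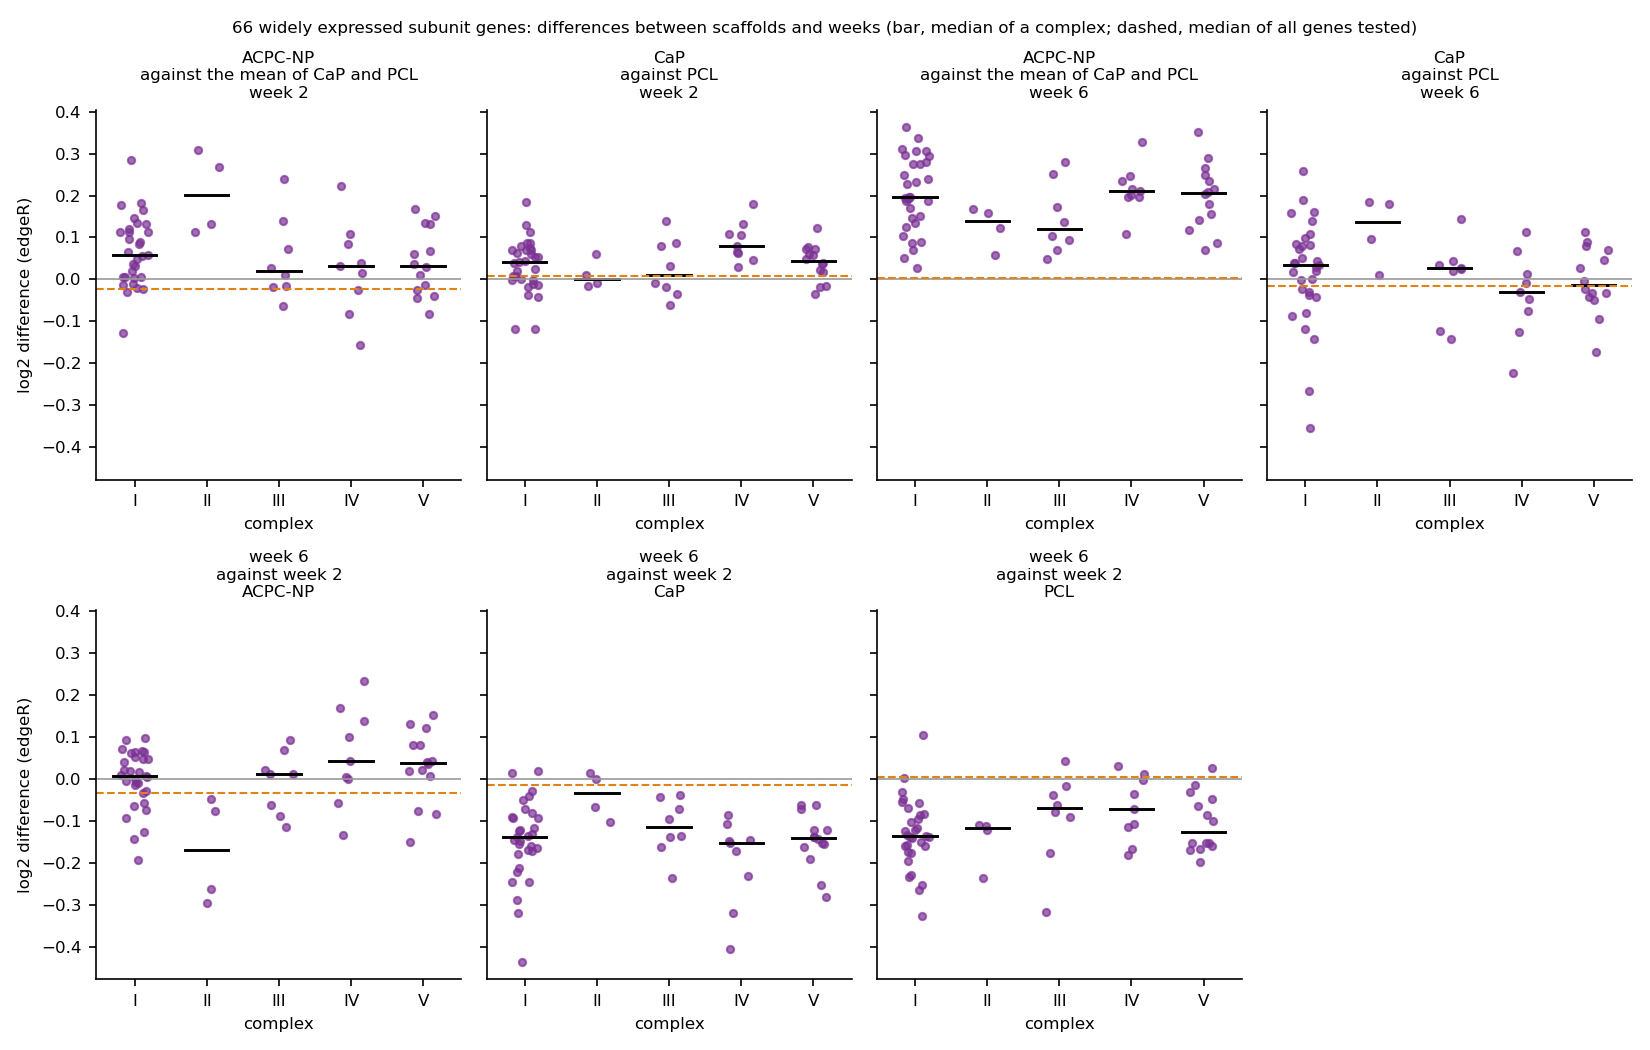
Log2 differences of the 66 widely expressed subunits, 1 point a gene, by complex, in 7 comparisons of scaffold or week; short bars are the median of each complex and the dashed line that of all genes tested. All 66 points are above 0 for ACPC-NP against the average of the other scaffolds at week 6, while those of CaP against PCL at week 6 lie on both sides of 0.

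At week 2 the chain as a whole did not separate by scaffold. Against the average of the other scaffolds, ACPC-NP had 52 of 75 genes above 0 (46.9% of all genes) with a median of 0.04, against -0.02 over all genes. The edgeR test called 0 of the 75, where it called 4.99% of all genes (590), and DESeq2 also called 0, while voom called Cox7a2l and Atp5sl lower (1.73% of all genes). At an unadjusted p of 0.05, 2 were higher (14.9% of all genes) and 1 was lower (4.40%), and 1 had separate higher ranges (5.80%). Without ACPC-NP replicate 3 the count above 0 was 46 and the median 0.01, 0 of the 75 were at an unadjusted p under 0.05, and edgeR called 10 genes in all. Complex IV then had 1 of 14 genes above 0, at a median of -0.07.

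Complex II had the highest of the week 2 medians, 0.20 with all 4 genes above 0, against 0.06 for complex I and 0.02 for complexes III, IV and V. Without ACPC-NP replicate 3 the complex II median was 0.12, and those of complexes I, III and V were 0.03, 0.00 and 0.03. Sdhb, whose promoter is printed above, had 86.0, 85.7 and 113 CPM in the ACPC-NP libraries at week 2, 84.0, 73.7 and 77.5 with CaP and 73.2, 69.6 and 82.6 with PCL. The ranges did not overlap, but 2 of the 3 ACPC-NP libraries were just above CaP replicate 1 and the third was far higher. The log2 difference was 0.31 ± 0.11 (adjusted p = 0.114) and 0.15 without replicate 3. Sdhc, a membrane anchor of the complex, had 80.0, 73.4 and 101 CPM with ACPC-NP, 75.6, 69.6 and 66.5 with CaP and 69.2, 62.0 and 79.1 with PCL. Replicate 3 was again the highest and the other libraries overlapped, at 0.27 ± 0.10 (adjusted p = 0.145) and 0.12 without it. Ndufa7 of complex I came next at 0.28 ± 0.14 (adjusted p = 0.289), with 34.5, 32.1 and 56.0 CPM with ACPC-NP; the high value was replicate 3, and without it the difference was -0.02. On the lower side Atp5sl was at -0.24 ± 0.10 (0.195).

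The comparisons at week 2 with each scaffold alone gave the same 2 genes, and both use the same ACPC-NP libraries. Against PCL, 53 of 75 were above 0 (47.9%), 2 were higher at an unadjusted p of 0.05 (12.3%) and 0 lower (3.39%), and 1 had separate higher ranges (9.56%) and 0 separate lower ones (7.40%), with Sdhb at 0.34 ± 0.12 and Sdhc at 0.27 ± 0.12. Without ACPC-NP replicate 3 both were smaller, Sdhb at 0.18 and Sdhc at 0.12, and the median of the 75 was 0.03. Against CaP, 44 of 75 were above 0 (47.0%), 2 were higher (11.6%) and 1 lower (4.12%), and 1 had separate higher (8.57%) and 2 separate lower ranges (7.91%), with Sdhb at 0.28 ± 0.12 and Sdhc at 0.26 ± 0.12. Without replicate 3 these were 0.12 and 0.11, and 39 of the 75 were above 0 at a median of 0.01. The edgeR test called 0 of the 75 and 0% of all genes in both.

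The 2 scaffolds without nanoparticles differed little. At week 2 CaP against PCL had 56 of 75 genes above 0 (52.9% of all genes), a median of 0.05 and 0 genes at an unadjusted p of 0.05 (1.08% of all genes higher and 0.466% lower), and 0 genes had separate ranges (3.09% higher and 2.93% lower). At week 6 it had 43 of 75 above 0 (46.4%) and a median of 0.02, with 5 genes in separate higher (3.99%) and 3 in separate lower ranges (4.91%). One gene was lower (1.66%): Ndufa4, counted by its name under complex I and now known as a subunit of complex IV, with 69.7, 80.5 and 86.7 CPM with CaP and 88.0, 99.8 and 115 with PCL. The lowest PCL library was just above the highest CaP library, and the log2 difference was -0.35 ± 0.12 (adjusted p = 1.0). The 1 higher gene (0.914%) was Ndufa10l1, which is described below. In both weeks edgeR, DESeq2 and voom called 0 of the 75.

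From week 2 to week 6 the median subunit was slightly lower with CaP and with PCL and near 0 change with ACPC-NP. Averaged over the scaffolds, 7 of the 75 genes and 0 of the 66 widely expressed subunits were above 0 (44.5% of all genes), with a median of -0.08 against -0.02 over all genes. The edgeR test called 0 of the 75, where it called 0.686% of all genes (81). At an unadjusted p of 0.05, 2 were higher (6.67%) and 3 were lower (7.92%): Sdhc at -0.19 ± 0.07 (adjusted p = 0.215; -0.13 without ACPC-NP week 2 replicate 3), Cox4i2 at -1.22 ± 0.45 (0.239) and Cox7a2, a small subunit of complex IV, at -0.18 ± 0.07 (0.249). With CaP, 9 of 75 were above 0 (47.0%) at a median of -0.14 and 6 were lower at an unadjusted p of 0.05 (3.09%), with 1 in separate higher (5.93%) and 6 in separate lower ranges (7.93%). With PCL, 10 were above 0 (50.6%) at a median of -0.11, 1 was higher (5.97%) and 3 were lower (3.90%), and 2 had separate higher (7.76%) and 10 separate lower ranges (6.70%). With ACPC-NP, 46 were above 0 (45.2%) at a median of 0.02, with 4 higher (7.30%) and 2 lower (12.5%), and 2 in separate higher (9.23%) and 1 in separate lower ranges (9.30%).

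The genes that led these time comparisons were not the same in each scaffold. With CaP, Cox7a2 had 21.8, 22.3 and 19.8 CPM at week 2 and 17.97, 15.5 and 14.8 at week 6. The weeks did not overlap, at a log2 difference of -0.40 ± 0.12 (adjusted p = 0.953). With PCL, Ndufs1 had 87.1, 80.4 and 82.2 CPM at week 2 and 69.1, 66.7 and 63.5 at week 6, also without overlap (-0.33 ± 0.13, adjusted p = 0.457), and Uqcr11, a small subunit of complex III, was at -0.32 ± 0.13 (0.456). With ACPC-NP, Atp5s had 3.31, 2.80 and 3.65 CPM at week 2 and 5.38, 5.01 and 4.79 at week 6, with all week 6 libraries above those of week 2 (0.64 ± 0.21, adjusted p = 0.131). Sdhb was at -0.30 ± 0.12 and Sdhc at -0.26 ± 0.12 there, with adjusted p of 0.205 and 0.226. Without ACPC-NP week 2 replicate 3 they were at -0.13 and -0.10, and 53 of the 75 were above 0 at a median of 0.05. For each scaffold edgeR called 0 of the 75, and it called 0%, 0% and 0.00846% of all genes for CaP, PCL and ACPC-NP. Osteoblast markers were lower at week 6 as well, with 0 of 9 above 0, a median of -1.08 and 1 called (3 without ACPC-NP week 2 replicate 3), and their part was not tested.

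Whether a scaffold difference changed between the weeks was tested as an interaction. The ACPC-NP against CaP difference was larger at week 6 in 64 of 75 genes (48.2% of all genes), with a median change of 0.16 and 4 genes at an unadjusted p of 0.05 (6.09%). These were Atp5s at 1.14 ± 0.30 (adjusted p = 0.244), Cox7b at 0.55 ± 0.18 (0.267), Ndufa11 at 0.34 and Ndufa4 at 0.39. The ACPC-NP against PCL difference was larger in 62 of 75 (45.3%), with a median of 0.12 and 3 genes at an unadjusted p of 0.05 (5.60%). These 2 interactions share the ACPC-NP libraries; without ACPC-NP week 2 replicate 3 their medians were 0.18 with CaP and 0.16 with PCL. The CaP against PCL difference was larger in 31 of 75 (45.7%), at a median of -0.03. The edgeR test called 0 of the 75 and 0% of all genes in each of the 3.

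The forms of limited tissue range followed another order than their widely expressed partners. Cox6a2 and Cox8b are the heart and skeletal muscle forms of complex IV subunits whose general forms are Cox6a1 and Cox8a. Cox6a2 had 0.118, 0.670 and 0.674 CPM with ACPC-NP at week 2, 0.288, 0.502 and 0.592 with CaP and 0.268, 0.356 and 0.500 with PCL. At week 6 it had 0.513, 0.226 and 6.77 with ACPC-NP, 1.60, 0.392 and 1.09 with CaP and 1.76, 2.10 and 1.06 with PCL. The week 6 libraries were mostly higher, ACPC-NP replicate 3 far above all others, while ACPC-NP replicates 1 and 2 and CaP replicate 2 stayed within the week 2 range. The log2 difference between weeks was 1.88 ± 0.56 (adjusted p = 0.154) and 0.97 (0.215) without ACPC-NP week 6 replicate 3. DESeq2 called it (adjusted p = 0.0236), as it called 1.34% of all genes higher.

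Cox8b had 0.039, 0.237 and 0.337 CPM with ACPC-NP at week 2, 0, 0.209 and 0.316 with CaP and 0.230, 0.079 and 0.208 with PCL. At week 6 it had 0.385, 0.135 and 2.34 with ACPC-NP, 0.417, 0.392 and 0.617 with CaP and 0.735, 0.633 and 0.637 with PCL. With CaP and with PCL every week 6 library was above every week 2 library, whereas with ACPC-NP the weeks overlapped. The log2 difference was 1.85 ± 0.55 (adjusted p = 0.154), 1.24 (0.196) without ACPC-NP week 6 replicate 3, and DESeq2 called it (0.0355). Over the same weeks the partners were at -0.09 ± 0.08 (Cox6a1) and -0.13 ± 0.08 (Cox8a).

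Skeletal muscle markers differed between the weeks along with both genes. All 12 were above 0 from week 2 to week 6, with a median of 1.66, and 3 were called by edgeR. Without ACPC-NP week 6 replicate 3 the median was 1.07 with 3 called, and without ACPC-NP week 2 replicate 3 it was 1.77 with 1 called. Their summed level was 27.5, 73.5 and 85.4 CPM with ACPC-NP at week 2, 60.6, 72.6 and 66.2 with CaP and 87.2, 76.4 and 103 with PCL. At week 6 it was 113, 84.5 and 742 with ACPC-NP, 239, 75.6 and 156 with CaP and 258, 187 and 131 with PCL. The library with the highest muscle marker sum, ACPC-NP week 6 replicate 3, was also the one with the most Cox6a2 and Cox8b. The part of muscle in these values was not tested.

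Cox4i2 is the lung form of the Cox4 subunit and is known to be made by pericytes and at low oxygen, as Ndufa4l2 is. Cox4i2 had 2.32, 2.76 and 2.30 CPM with ACPC-NP at week 2, 3.25, 1.59 and 7.57 with CaP and 1.11, 7.33 and 1.83 with PCL. At week 6 it had 0.555, 1.26 and 2.45 with ACPC-NP, 1.81, 0.261 and 2.51 with CaP and 1.39, 1.11 and 1.36 with PCL. The 2 libraries above 7 CPM were both of week 2, and the rest overlapped. Pericyte markers were lower at week 6 as well, with 1 of 6 above 0 and a median of -0.67 (0 called), or -1.14 without ACPC-NP week 6 replicate 3, and their part was not tested. Ndufa4l2 ranged from 1.88 to 6.59 CPM at week 2 and from 1.32 to 8.13 at week 6, its highest values in CaP week 6 replicate 1 and ACPC-NP week 6 replicate 3, and its difference between weeks was -0.14 ± 0.38. Cox6b2, a testis form, was at 0.03 ± 0.19.

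Ndufa10l1, a close copy of the complex I gene Ndufa10, was high in 4 libraries: CaP week 2 replicate 1 with 3.74 CPM, CaP week 6 replicates 1 and 3 with 6.71 and 3.18, and ACPC-NP week 6 replicate 3 with 7.18. The other 14 had at most 0.458 CPM. Ndufa10 itself kept to 40.5 to 57.1 CPM and was below its own mean in those 4, at 43.7, 42.9, 40.5 and 44.5 CPM. It was as low in some libraries with little Ndufa10l1, such as PCL week 6 replicate 1 at 42.2 CPM. Reads may be split between copies of a gene, and how the counting treated them is not given in the sources used here. Values of Ndufa10l1 are thus uncertain, and those of Ndufa10 may be affected, which was not tested. Its pooled difference at week 6 of 2.08 and its CaP against PCL difference of 5.06 ± 1.82 (adjusted p = 1.0) both rested on these few libraries.

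**Figure D4:**
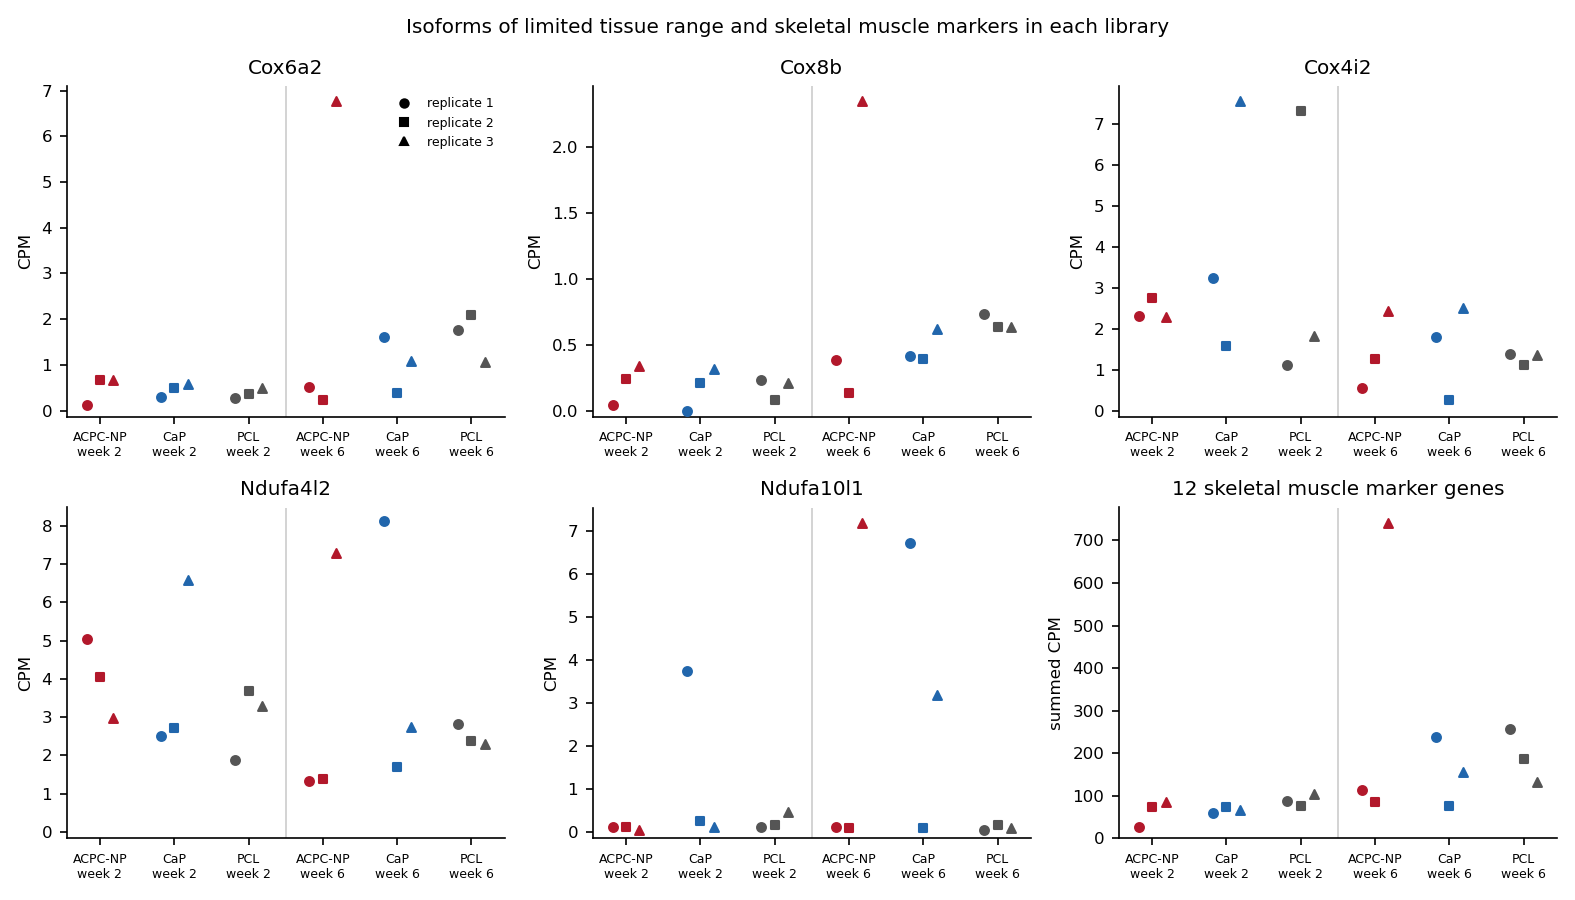
CPM of Cox6a2, Cox8b, Cox4i2, Ndufa4l2 and Ndufa10l1 and the summed CPM of 12 skeletal muscle markers in each of the 18 libraries, by scaffold and week. ACPC-NP week 6 replicate 3 is the highest for Cox6a2 (6.77), Cox8b (2.34) and the muscle markers (742), and Ndufa10l1 is high in 4 libraries only.

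Other mitochondrial genes were read from lists of the pathway. At week 6, against the average of the other scaffolds, 33 of 42 assembly factors of the complexes were above 0 with a median of 0.17. Mitochondrial ribosomal proteins, which make the subunits encoded in the organelle, had 58 of 66 above 0 and a median of 0.14. Among 9 carriers and pores 8 were above 0, led by the oxoglutarate carrier Slc25a11 at 0.37 ± 0.10 (adjusted p = 0.105) and the pyruvate carrier subunit Mpc2 at 0.42 ± 0.13 (0.115). The electron transfer flavoprotein subunit Etfb was at 0.49 ± 0.14 (0.114) and Atpif1, an inhibitor of ATP synthase, at 0.48 ± 0.16 (0.128). Citric acid cycle and pyruvate dehydrogenase genes had 14 of 19 above 0 and a median of 0.09, and glycolysis genes 13 of 17 and 0.18. The glycolysis median was 0.09 without ACPC-NP replicate 1, 0.23 without replicate 2 and 0.13 without replicate 3. In none of these lists did edgeR call a gene at week 6, where it called no gene of all those tested.

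Regulators of mitochondrial gene expression did not share the direction at week 6, with 4 of 13 above 0 and a median of -0.13. Gabpb1, a partner of the ETS factor GABPA, was at -0.59 ± 0.19 (adjusted p = 0.122), the mitochondrial transcription factor Tfb2m at -0.43 ± 0.13 (0.115) and Yy1 at -0.26 ± 0.11 (0.209), whereas Myc was at 0.57 ± 0.18 (0.122). Nrf1 was at -0.01 ± 0.07. The cytosolic ribosomal proteins, another abundant set, had 60 of 85 above 0 and a median of 0.04.

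At week 2 the lists parted. Glycolysis genes had 15 of 17 above 0 with a median of 1.15, and edgeR called 9, where it called 4.99% of all genes. Slc2a1, the glucose transporter, was higher by 3.89 ± 0.66 (edgeR adjusted p = 0.00978) and Pfkl by 1.51 ± 0.32 (0.0196). Tpi1, an enzyme, was higher by 2.698 ± 0.55 (edgeR adjusted p = 0.0165). It was listed at only 1.23 ± 1.32 CPM with ACPC-NP (SD, n = 3), so its difference rested on few counts. Slc2a1 had 112, 303 and 2506 CPM with ACPC-NP, 41.7, 59.8 and 98.5 with CaP and 39.8, 89.1 and 64.6 with PCL, so replicate 3 was far above the other 2. Pdk1, a kinase that turns off pyruvate dehydrogenase, rose by 1.65 ± 0.37 (0.0219), with 21.3, 26.3 and 112 CPM with ACPC-NP, 15.5, 18.3 and 15.9 with CaP and 15.3, 17.3 and 19.5 with PCL. Without replicate 3 none of the glycolysis genes was called and their median was 0.30. Slc2a1 was then at 1.65 (edgeR adjusted p = 0.235), Tpi1 at 1.35 (0.49) and Pdk1 at 0.48 (0.447). Markers of macrophages (7 of 9 called higher, median 1.19) and osteoclasts (5 of 8, median 1.41) differed along with these genes. Without replicate 3 none of them was called and the medians were 0.55 and 1.24; their part was not tested.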

How the data were processed

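RNA was sequenced from 18 libraries, 3 in each of 6 groups of scaffold and week. The authors deposited whole-number counts per gene symbol for all libraries in 1 table of 17337 rows. The submitters' processing notes name bcl2fastq 2.20.0, STAR 2.7.9a, featureCounts of Subread 2.0.1 and build Rnor_6.0; for the annotation, the strand setting and reads shared between gene copies, the choice is not given in the sources used here. The counts were tested with edgeR 4.0.16 (R 4.3.3): the filterByExpr rule (minimum count 10, minimum total 15) kept 11814 genes holding 99.98% of counts, which were scaled by TMM, and fitted with a robust quasi-likelihood model with 1 term per group over all 18 libraries (12 residual degrees of freedom). P-values were adjusted by Benjamini-Hochberg over all genes tested, and a gene was called at an adjusted p under 0.05. All 75 members were tested. Where ACPC-NP is compared with the average of the other scaffolds, this is the mean of the log2 terms of CaP and PCL (the pooled comparison); a range is separate where all libraries of one side are above all of the other. Log2 CPM used a prior count of 2. Alternatives were DESeq2 1.42.0, limma 3.58.1 voom with sample weights, other scalings and filters, a replicate block and leaving out each library. The test was checked on simulated counts. Named members were a panel by complex, the tissue-limited forms with their partners, and in each comparison those called or, with none called, the 3 with the smallest p in each direction; others were chosen after their values were seen (Ndufs4, Ndufa11, Atp5o, Cox7b and Uqcr11 where not among those 3). One member of the panel counts in all sums and counts but is not reported here by itself. The members and lists were chosen with earlier results of these data known. Promoters came from RefSeq's GRCr8 tables, another build than that of the counts, and were used as sequence only. At these depths counting error is small beside the spread between libraries for the widely expressed subunits, while Cox8b and Cox6a2 have few counts in most libraries.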

Additional observations from a re-analysis of the deposited data

How the results depend on the processing

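In each of the 15 comparisons the count of members called by edgeR stayed at 0 under DESeq2's size factors in edgeR, without a filter on low counts, with 66 widely expressed subunits only and with library totals. It was 1 (Atp5o, adjusted p = 0.0433) for the pooled week 6 comparison fitted on the groups compared alone. DESeq2 called 6 members against PCL (883 genes in all), 1 against CaP (23) and 5 pooled (608) at week 6, 2 between weeks with ACPC-NP (797), 2 over the scaffolds (382), and 1 in the interaction with CaP (183). The voom fit called 19 (4042), 1 (70) and 19 (3462) in those week 6 comparisons and 2 (874) pooled at week 2. Between weeks it called 1 (1350) with ACPC-NP, 4 (1739) with PCL and 2 (1620) over the scaffolds, and in the interactions of ACPC-NP 5 (1930) with PCL and 2 (167) with CaP. At week 2 the median against PCL was -0.058 under voom; with library totals it was -0.088 against PCL, -0.104 against CaP and -0.103 pooled, where the medians of all genes were -0.161, -0.150 and -0.163. The cause of these differences was not tested.

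Leaving out each library in turn gave 0 to 2 calls against PCL at week 6 and in the pooled week 6 comparison, with 2 only without PCL week 6 replicate 1, and 0 elsewhere. The median log2 difference then ranged from 0.155 to 0.292 against PCL, 0.153 to 0.236 against CaP and 0.151 to 0.24 pooled at week 6, and from 0.01 to 0.129, -0.045 to 0.107 and -0.008 to 0.092 at week 2. For CaP against PCL it was -0.041 to 0.11 at week 2 and -0.009 to 0.108 at week 6. Between weeks it was -0.045 to 0.075 with ACPC-NP, -0.192 to -0.044 with CaP, -0.19 to -0.05 with PCL and -0.105 to -0.05 over the scaffolds. The interactions gave 0.044 to 0.2 with PCL, 0.062 to 0.218 with CaP and -0.09 to 0.07 for CaP and PCL. Groups share replicate numbers, and 18 of 45 same-numbered pairs had correlated deviations over 0.1 (median 0.026, against -0.0085 for other pairs). Correlations this weak, from so few libraries per group, cannot decide whether the numbers pair the samples. With a replicate block 0 members were called in all 15 comparisons and the pooled week 6 median was 0.193.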
